A study of Mus musculus with 6 samples.

Results

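Collagen chain genes were followed through 6 mouse arrays: 42 of the 18193 genes named on the array carry a symbol of the form Col, a type number, the letter a and a chain number. Each was represented by 1 probe set, the one whose mean signal over the 6 arrays was highest, and the genes were grouped by the kind of collagen they encode into 11 fibrillar, 8 basement membrane, 9 FACIT (fibril-associated) and 14 other chains. All 42 matched a gene of the same name in RefSeq. The tumor samples were 3 granulosa cell tumors from Smad1/5/8 mutant mice, Smad8 being named Smad9 today. Smad1, Smad5 and Smad9 are transcription factors of bone morphogenetic protein (BMP) signalling. The tumors were set against 3 samples of wild-type granulosa cells, the somatic layer around the oocyte of a follicle, from females of strain C57BL/6J;129S5/SvEvBrd aged 21 days. The wild-type females had received PMSG, a gonadotropin preparation that drives follicle growth, 44 to 46 hours before collection, and each sample pooled cells of 2 to 3 females. The labels call the tumors untreated, while the sources used here do not give the strain, age, sex, alleles or any Cre driver of the mutant mice. The tumors were tissue and the wild-type samples isolated cells, and the submitters' processing notes name GCOS for the tumor arrays and MAS5 for the wild-type arrays. Genotype, tumor growth, cell isolation, age, gonadotropin priming and array software therefore cannot be told apart in any difference below.

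Collagens are secreted proteins of 3 chains wound into a triple helix, and each chain has its own gene. Fibrillar collagens, such as types I, III and V, assemble into the banded fibrils of connective tissue, FACIT collagens sit on the surface of those fibrils, and type IV collagen forms the sheet-like network of basement membranes. In the ovary, granulosa cells rest on a follicular basement membrane that contains type IV collagen, while fibrils of types I and III lie outside it, in the theca and stroma. Newly made chains are hydroxylated and glycosylated in the endoplasmic reticulum, folded with the help of chaperones, exported in large carriers, trimmed, and crosslinked outside the cell.

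Of the 42 genes, 28 reached an array signal of 100 on at least 3 of the 6 arrays and were tested with limma, together with all other genes that did, 11611 in total. A gene was called where its p, adjusted by Benjamini-Hochberg over these 11611 genes, was under 0.05. Fold changes are differences of the mean log2(signal + 32) between tumors and wild-type cells, which understate the change of dim genes. Collagen genes were called higher in tumors in 13 cases, lower in 0 cases and not called in 15, while over all tested genes 14.5% were called higher and 12.6% lower, 27.2% in all. At an unadjusted p under 0.05, 17 collagen genes were higher and 1, Col4a6, was lower. The called share was 46.4% of the tested members. The median log2 fold change of the 28 was 1.10, or 1.02 with the 2 genes that lay below 100 on all wild-type arrays, Col8a1 and Col26a1, at their lower bound, against -0.0049 over all tested genes. Those 2 genes entered the test through the tumor arrays alone. Scaling the arrays to the bacterial hybridisation controls moved the median of all tested genes by -0.98. It left 6 of the 13 called higher, where 3.58% of all tested genes were called higher. It called 5 members lower, where 65.0% of all tested genes were called lower, and turned the sign of Col5a1 and Col6a2 among the 13. Under that scaling 25 of the 28 lay above the median of all tested genes, against 24 in the deposited scaling. The scaling moves every gene by nearly the same amount, so this count could hardly change. Of all calls over the 11611 genes 53.5% were higher, a share that was 65.1% with each array scaled to its median and 5.23% with hybridisation control scaling. Median scaling called 17 collagen genes higher, and 1715 of all tested genes against 1686 in the deposited scaling. Leaving out wild type 1 lowered the 13 calls to 8, and the number of all tested genes called higher from 1686 to 866.

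**Figure D1:**
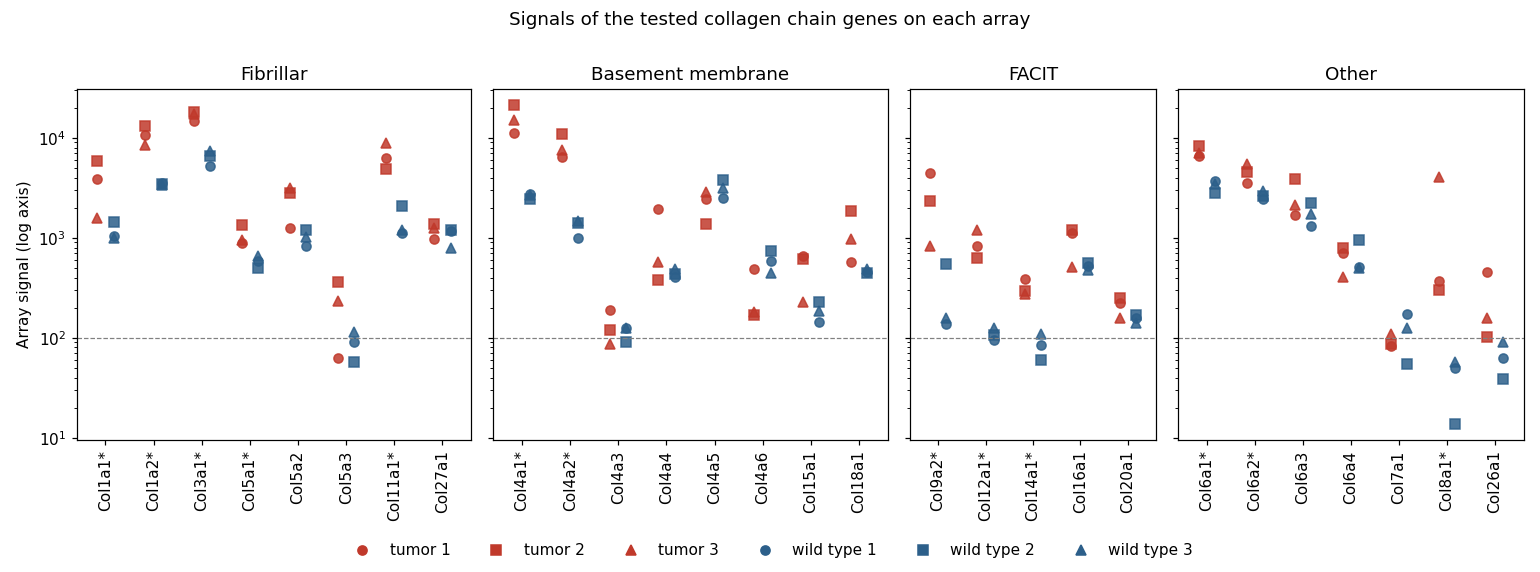
Array signal (log axis) of the 28 tested collagen chain genes on each array, tumors in red to the left of wild-type samples in blue, with the symbol giving the replicate. An asterisk marks the 13 genes called higher in tumors, the dashed line is the signal minimum of 100, and in 16 genes all red points lie above all blue points.

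The groups did not overlap in 16 of the 28 tested genes, and in all 16 the tumors lay above the wild-type samples. For Col8a1 and Col26a1, which are among the 16, the signal minimum fixed this in advance. Over all tested genes, tumors lay wholly above in 23.7% and wholly below in 22.6%. On each array the median of the 28 genes, taken relative to the wild-type mean on the log2 scale, was 1.02, 1.39 and 1.01 in tumors 1, 2 and 3, against -0.0030, 0.014 and 0.049 in wild type 1, 2 and 3. By class, 5 of 8 tested fibrillar genes, 2 of 8 basement membrane genes, 3 of 5 FACIT genes and 3 of 7 other genes were called higher, and none of the 4 classes had a gene called lower. Their median log2 fold changes were 1.26, 0.90, 1.59 and 0.74. A change of at least 1 on the log2 scale together with the call was reached by 11 of the 13 genes, while 8.34% of all tested genes were called higher with such a change and 5.28% lower.

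**Figure D2:**
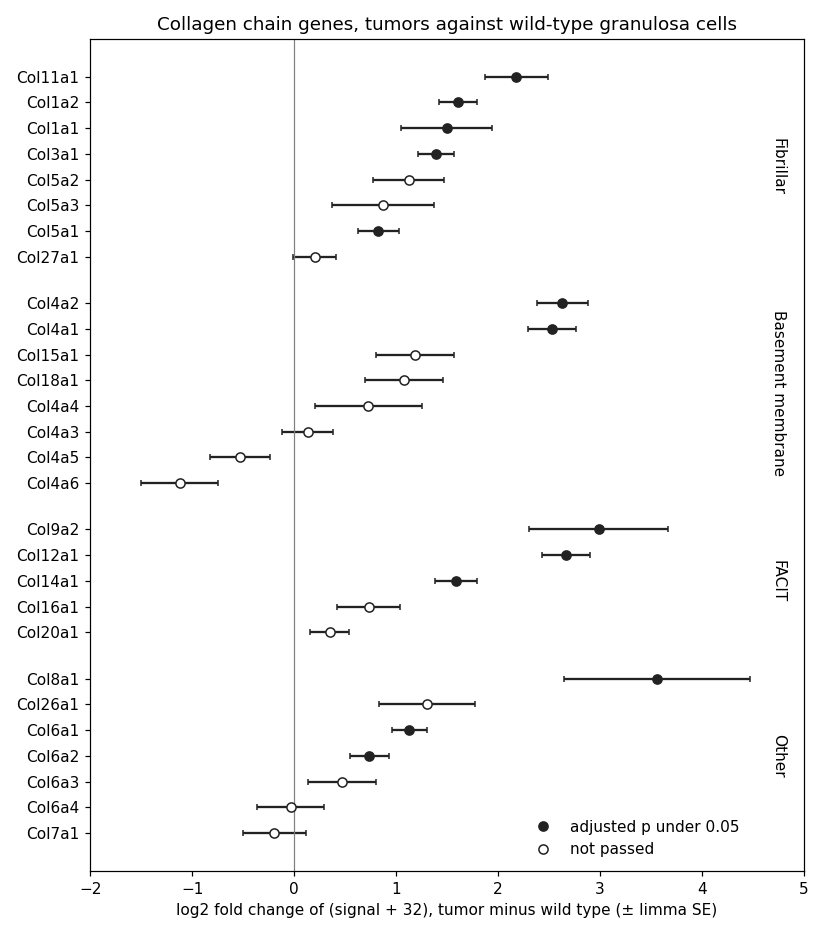
Log2 fold change of (signal + 32), tumors minus wild-type samples, of the 28 tested collagen chain genes by class, with limma's standard error as bars. Filled points passed an adjusted p of 0.05, and 24 of the 28 points lie right of 0, of which 8 lie left of it when arrays are scaled to the hybridisation controls.

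Every array had been scaled to a trimmed mean of 500, and a signal of 100 was reached by 22599 to 23695 probe sets on tumor arrays, against 22923 to 25049 on wild-type arrays. The targeted genes did not read as lost: Smad1 had signals of 2076, 2861 and 2354 in tumors, against 830, 856 and 926 in wild-type cells, Smad5 likewise was higher in tumors by 1.19 on the log2 scale (limma adjusted p = 0.0028; neither passed with hybridisation control scaling), and Smad9 lay below 100 on all 6 arrays. No source used here says where these probes lie relative to any deleted exons, so they check nothing about the genotype. For Actb, the 3′ over 5′ control probe set ratio, a sign of RNA integrity, was on the log2 scale 0.808 ± 0.209 in tumors and 0.447 ± 0.193 in wild-type samples (SD, n = 3 each), and its part in the results was not tested. For Gapdh it was -0.365 ± 0.113 in tumors and -0.391 ± 0.065 in wild-type samples. In samples of mixed cells, fewer cells of a type and less RNA per cell cannot be told apart.

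Among basement membrane genes, the ubiquitous type IV pair rose and the other 4 type IV chains were not called. Col4a1 had signals of 11270, 21353 and 15083 in tumors 1, 2 and 3, against 2749, 2473 and 2690 in wild-type cells. Col4a2, whose chain joins that of Col4a1 in the common type IV trimer, had 6423, 10990 and 7522 in tumors, against 1008, 1401 and 1481 in wild-type cells. Every tumor lay above every wild-type sample in both genes, with tumor 2 the highest. The log2 fold changes were 2.53 ± 0.24 for Col4a1 and 2.63 ± 0.25 for Col4a2 (limma SE, n = 3 each, adjusted p = 0.00094 for both). Both calls held in every fit that left out 1 sample and under every other scaling, filter and pseudocount that was run. A second probe set of Col4a1 gave 2.17.

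Col4a1 and Col4a2 stand head to head on chromosome 8, Col4a2 on the plus strand and Col4a1 on the minus strand, with RefSeq start sites 21 bases apart (GRCm38.p6). The stretch that holds both starts is shown because the 2 genes with nearly equal changes share it. Capitals mark the bases from one start through the other.
Shared start of Col4a1 and Col4a2, chr8:11312801-11312830, plus strand: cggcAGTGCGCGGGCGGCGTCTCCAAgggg

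Col4a5 and Col4a6, the second head-to-head pair of type IV genes, lie on the X chromosome and encode chains that join in a trimer of more restricted tissues. Col4a5 had signals of 2452, 1391 and 2884 in tumors, against 2522, 3754 and 3177 in wild-type cells, and the groups overlapped. Its log2 fold change was -0.53 ± 0.29 (adjusted p = 0.22), while a second, dimmer probe set gave -0.81 (adjusted p = 0.042 in a fit over 21001 probe sets). Col4a6 had signals of 483, 169 and 180 in tumors, against 583, 735 and 449 in wild-type cells. Tumors 2 and 3 lay below all wild-type samples and tumor 1 did not. The log2 fold change of Col4a6 was -1.12 ± 0.38 (adjusted p = 0.067), and without tumor 1 it was -1.56 (adjusted p = 0.0080). It was the lowest value among the 28 members, and robust, trended variance estimates also called it lower (adjusted p = 0.047). A second, dimmer probe set of Col4a6 gave -0.67 and was not called (limma adjusted p = 0.32 in the fit over 21001 probe sets). With probe sets averaged the value was -0.90 (limma adjusted p = 0.15). Leaving out any sample other than tumor 1 did not call Col4a6 (limma adjusted p up to 0.17).

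The 250 bases before the RefSeq starts of this pair are printed to set them beside the shared start above, since the 2 X-linked starts lie 1343 bases apart. Capitals here and in the later promoters mark matches, on either strand, to 5 short motifs: CCAAT (the CCAAT box), GGGCGG (the GC box), TATAAA (the TATA box), CAGACA (which holds the CAGAC element bound by Smad proteins) and GGCGCC (a GC-rich element known for BMP-responsive Smads). Matches to GGGCGG and GGCGCC can overlap.
Col4a5, chrX:141475169-141475418, plus strand: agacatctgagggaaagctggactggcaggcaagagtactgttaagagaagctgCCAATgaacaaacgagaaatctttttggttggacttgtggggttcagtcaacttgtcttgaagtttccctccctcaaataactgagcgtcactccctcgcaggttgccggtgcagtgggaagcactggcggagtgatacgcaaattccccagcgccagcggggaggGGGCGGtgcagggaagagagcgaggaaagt
Col4a6, chrX:141474077-141474326, minus strand: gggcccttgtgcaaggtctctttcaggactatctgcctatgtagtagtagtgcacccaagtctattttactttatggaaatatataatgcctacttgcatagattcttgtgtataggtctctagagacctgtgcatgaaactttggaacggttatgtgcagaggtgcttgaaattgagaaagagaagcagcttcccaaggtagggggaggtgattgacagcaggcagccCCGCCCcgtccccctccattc

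Col4a3 and Col4a4, the type IV pair on chromosome 1 known from kidney glomerular basement membrane, were not called. Col4a4 had signals of 1928, 377 and 576 in tumors, against 408, 433 and 492 in wild-type cells. Tumor 1 alone stood above the wild-type samples, 3.35-fold over the next tumor, and the log2 fold change was 0.73 ± 0.53 (adjusted p = 0.34). All 3 passing probe sets of Col4a4 had their highest signal in tumor 1. Col4a3 had signals of 191, 120 and 87 in tumors, against 125, 90 and 127 in wild-type cells, with a log2 fold change of 0.13 that was -0.11 without tumor 1 and -0.66 with hybridisation control scaling.

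The balance between type IV chains was also compared within each array, as the log2 ratio of 2 probe sets, with an exact 2-sided permutation test whose smallest p with 3 samples a group is 0.1. The scale of such a ratio is set by the probes, and the difference between groups is what can be read. The ratio of Col4a1 to Col4a2 was 0.808, 0.956 and 1.00 in tumors, against 1.42, 0.805 and 0.847 in wild-type cells, a difference of -0.10 (exact permutation p = 0.9). Col4a1 over Col4a5 was 2.19, 3.91 and 2.37 in tumors, against 0.123, -0.596 and -0.238 in wild-type cells, so that every tumor lay above every wild-type sample. That difference was 3.06 with the smallest p the design allows (exact permutation p = 0.1, 0.47 adjusted over the 7 ratios compared). Col4a5 over Col4a6 differed by 0.59 (exact permutation p = 0.3).

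The remaining basement membrane genes encode the multiplexins, collagens of vascular and epithelial basement membrane zones. Col18a1, whose C-terminal fragment is endostatin, had signals of 567, 1868 and 971 in tumors, against 459, 445 and 487 in wild-type cells. The groups did not overlap, but the tumors differed widely among themselves and the log2 fold change of 1.08 ± 0.38 did not pass (adjusted p = 0.076). Without tumor 1 it was 1.48 (adjusted p = 0.017), the only fit without 1 sample that called Col18a1 (limma adjusted p up to 0.17 in the others). Col15a1 had signals of 658, 616 and 228 in tumors, against 142, 228 and 184 in wild-type cells. Tumor 3 reached only the level of the highest wild-type sample, and the log2 fold change was 1.19 ± 0.38 (adjusted p = 0.058), or 1.64 without tumor 3 (adjusted p = 0.0039). Leaving out any other sample did not call it (limma adjusted p up to 0.17). Col15a1 was also called by 5 of the other settings, among them quantile normalization (adjusted p = 0.043).

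Fibrillar collagens rose in 5 of 8 tested genes, led by Col11a1, a minor fibril chain that nucleates thin fibrils and is known from cartilage. Its signals were 6265, 4918 and 8921 in tumors, against 1115, 2099 and 1196 in wild-type cells. Every tumor was above every wild-type sample, and the log2 fold change was 2.18 ± 0.31 (adjusted p = 0.0036). A second probe set gave 2.39. Col2a1 and Col11a2, the chains that accompany Col11a1 in cartilage fibrils, did not pass the signal minimum. Col2a1 read 4.2, 7.2 and 8.2 in tumors, against 18, 20 and 26 in wild-type cells, and Col11a2 reached 100 in tumor 1 alone, at 125.

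Col1a2, which encodes the second chain of type I collagen, had signals of 10767, 13101 and 8455 in tumors, against 3553, 3425 and 3412 in wild-type cells. The wild-type samples were nearly equal, all tumors lay above them, and the log2 fold change was 1.61 ± 0.19 (adjusted p = 0.0018). Col3a1, the type III chain of reticular fibrils, had 14776, 18286 and 17163 in tumors, against 5237, 6516 and 7425 in wild-type cells. Its groups did not overlap, and its log2 fold change was 1.39 ± 0.18 (adjusted p = 0.0026). With hybridisation control scaling the fold changes of Col1a2 and Col3a1 kept their sign at 0.56 and 0.35 and neither passed.

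Col1a1, the partner of Col1a2 in type I collagen, had signals of 3848, 5891 and 1586 in tumors, against 1048, 1456 and 1000 in wild-type cells. The groups did not overlap, but tumor 3 came close to the highest wild-type sample. The log2 fold change was 1.50 ± 0.45 (adjusted p = 0.046), and a second probe set gave 0.94 (adjusted p = 0.040). The call held without tumor 3 and was lost without tumor 1 (adjusted p = 0.11), tumor 2 (0.097), wild type 1 (0.13), wild type 2 (0.077) and wild type 3 (0.12). Within arrays, the log2 ratio of Col1a1 to Col1a2 was -1.48, -1.15 and -2.39 in tumors, against -1.73, -1.22 and -1.74 in wild-type cells, and the groups overlapped (difference -0.11, exact permutation p = 0.9, smallest possible 0.1).

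Type V chains help set the diameter of type I fibrils, and 1 of the 3 was called. Col5a1 had signals of 890, 1350 and 956 in tumors, against 583, 496 and 662 in wild-type cells, with no overlap. Its log2 fold change of 0.83 ± 0.20 passed (adjusted p = 0.024), but turned to -0.18 with hybridisation control scaling, and its other 2 passing probe sets gave 0.09 and 0.72 and were not called. The call was lost without tumor 2 (adjusted p = 0.057), wild type 1 (0.080) or wild type 2 (0.072). Col5a2 had signals of 1244, 2799 and 3144 in tumors, against 824, 1203 and 1018 in wild-type cells. The groups just failed to overlap, with a log2 fold change of 1.12 ± 0.35 (adjusted p = 0.053), and without tumor 1 it was 1.53 (adjusted p = 0.0061). That was 1 of 6 fits without 1 sample, and the others did not call Col5a2 (limma adjusted p up to 0.16). Col5a2 lies next to Col3a1 on chromosome 1. Col5a3, the third type V chain, had signals of 62, 364 and 233 in tumors, against 91, 57 and 114 in wild-type cells, and was not called, with a log2 fold change of 0.87 (adjusted p = 0.24) that was 1.47 without tumor 1 (adjusted p = 0.017). For Col5a3 too, the fits without any other sample did not pass (limma adjusted p up to 0.54).

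Col27a1, a fibrillar chain known from cartilage, read 984, 1389 and 1261 in tumors, against 1171, 1198 and 799 in wild-type cells. The groups overlapped, 2 passing probe sets gave log2 fold changes of 0.20 and -0.20, and the value was -0.82 with hybridisation control scaling. Without tumor 2, wild type 1 or wild type 2, the number of fibrillar genes called higher was 3 in place of 5.

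The promoters of the 3 fibrillar genes that were called in every fit without 1 sample are shown for the differences between them. Each runs 250 bases up to the RefSeq start.
Col11a1, chr3:114030290-114030539, plus strand: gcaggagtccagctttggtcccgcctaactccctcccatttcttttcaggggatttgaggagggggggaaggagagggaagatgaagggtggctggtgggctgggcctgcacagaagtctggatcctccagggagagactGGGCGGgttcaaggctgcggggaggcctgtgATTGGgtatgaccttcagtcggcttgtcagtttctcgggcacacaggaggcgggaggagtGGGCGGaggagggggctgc
Col1a2, chr6:4505368-4505617, plus strand: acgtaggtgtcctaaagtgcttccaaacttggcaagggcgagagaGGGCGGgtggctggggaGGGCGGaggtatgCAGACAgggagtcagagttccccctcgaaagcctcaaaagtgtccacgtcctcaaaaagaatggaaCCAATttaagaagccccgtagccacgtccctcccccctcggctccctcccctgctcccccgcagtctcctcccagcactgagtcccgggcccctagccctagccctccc
Col3a1, chr1:45311288-45311537, plus strand: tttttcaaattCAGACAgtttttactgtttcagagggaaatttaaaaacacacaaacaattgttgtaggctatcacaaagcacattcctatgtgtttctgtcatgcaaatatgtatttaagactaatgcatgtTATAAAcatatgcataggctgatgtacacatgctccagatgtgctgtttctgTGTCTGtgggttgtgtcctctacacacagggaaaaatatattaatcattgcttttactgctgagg
Col1a2 and Col11a1 each held a CCAAT match and a pair of GGGCGG matches, while Col3a1 held none of either, a TATAAA match and a pair of CAGACA matches. Col1a2 also held 1 CAGACA match and Col11a1 held none. Promoters were present in the RefSeq table for 33 of the 42 genes, 10 of them called. CCAAT was found in 13 of the 33 and 4 of the 10, against 37.5% of all 27025 genes in the table. In each count a gene with several promoters counts once, if any of them holds the letters. GGGCGG was found in 20 of the 33 and 7 of the 10, against 35.4% of all genes, and TATAAA in 5 of the 33 and 1 of the 10, against 14.3%. The Smad-related letters were found in 8 of the 33 and 5 of the 10 for CAGACA, against 19.3% of all genes, and in 4 of the 33 and 2 of the 10 for GGCGCC, against 10.8%. These are matches of letters and say nothing of binding.

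FACIT collagens rose in 3 of the 5 tested genes. Col12a1, which coats type I fibrils in dense connective tissue, had signals of 820, 635 and 1202 in tumors, against 94, 106 and 124 in wild-type cells. Every tumor was far above the wild-type samples, 1 of which lay below 100, and the log2 fold change was 2.67 ± 0.24 (adjusted p = 0.00081). Col14a1, its close relative, had 385, 295 and 275 in tumors, against 84, 60 and 110 in wild-type cells. No tumor overlapped the wild-type samples, and the log2 fold change was 1.59 ± 0.21 (adjusted p = 0.0028). For both genes a second probe set was called higher, at 1.70 for Col12a1 and 1.50 for Col14a1. That of Col14a1 reached 100 on the tumor arrays alone, so it had to be higher in tumors to be tested.

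Col9a2, a chain of type IX collagen that decorates cartilage fibrils, had signals of 4498, 2332 and 829 in tumors, against 137, 543 and 157 in wild-type cells. The tumors lay above all wild-type samples but spanned a 5.42-fold range, and wild type 2 stood above the other two. Its log2 fold change was 2.99 ± 0.68 (adjusted p = 0.019), with the call lost without wild type 1 (adjusted p = 0.070) or wild type 3 (0.062). The partner chains Col9a1 and Col9a3 were not tested. Col9a1 reached 100 in tumor 3 alone, at 113, and Col9a3 lay below 100 on all 6 arrays, so that Col9a2 was the only type IX chain above the signal minimum.

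Col16a1, found near fibrils and basement membranes, had signals of 1111, 1195 and 510 in tumors, against 528, 554 and 474 in wild-type cells. Tumor 3 lay among the wild-type samples, and the log2 fold change was 0.73 ± 0.31 (adjusted p = 0.13), or 1.11 without tumor 3 (adjusted p = 0.0048). No other fit without 1 sample called Col16a1 (limma adjusted p up to 0.30). Col20a1 had 225, 252 and 157 in tumors, against 159, 169 and 142 in wild-type cells, and its 2 passing probe sets differed in sign, at 0.35 and -0.30. It passed without tumor 3 alone (0.52, adjusted p = 0.049), so that all 5 tested FACIT genes were called higher in that fit.

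Among the other collagens, type VI chains make the beaded microfilaments that surround cells, and 2 of the 4 tested ones rose. Col6a1 had signals of 6573, 8312 and 7010 in tumors, against 3668, 2808 and 3492 in wild-type cells. Col6a2, next to it on chromosome 10, had 3548, 4583 and 5526 in tumors, against 2455, 2624 and 2959 in wild-type cells. Neither gene's groups overlapped. The log2 fold changes were 1.13 ± 0.17 for Col6a1 (adjusted p = 0.0045) and 0.74 ± 0.19 for Col6a2 (adjusted p = 0.030), and with hybridisation control scaling they were 0.09 and -0.30. The call of Col6a2 held without tumor 1 and was lost without each of the other samples (adjusted p between 0.057 and 0.11), while its second probe set gave 0.87 (adjusted p = 0.0084).

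Col6a3, the long chain that completes the common type VI trimer, had signals of 1695, 3894 and 2120 in tumors, against 1318, 2239 and 1747 in wild-type cells. Its groups overlapped, with a log2 fold change of 0.47 ± 0.33 (adjusted p = 0.33). The ratio of Col6a3 to Col6a1 within arrays was -1.94, -1.09 and -1.71 in tumors, against -1.45, -0.322 and -0.986 in wild-type cells, a difference of -0.66 (exact permutation p = 0.2). Col6a4 was not called, at 705, 782 and 402 in tumors, against 506, 954 and 496 in wild-type cells.

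Col8a1 encodes a short-chain collagen known from vessel walls and the cornea, and its signal was highest by far in tumor 3. Its signals were 368, 298 and 4109 in tumors, against 50, 14 and 57 in wild-type cells. All tumors lay above the wild-type samples, which were below 100 throughout, but tumor 3 stood 11.2-fold above the next tumor. Measured against a signal of 100 in wild-type cells, Col8a1 was at least 7.67-fold higher in tumors (adjusted p = 0.028), and at least 3.31-fold without tumor 3 (adjusted p = 0.0045). The call was lost without wild type 1 (adjusted p = 0.075), wild type 2 (0.087) or wild type 3 (0.064). A second probe set with the same pattern, 235, 439 and 3044 in tumors, against 80, 61 and 76 in wild-type cells, passed (limma adjusted p = 0.042). Both probe sets reached 100 on the tumor arrays alone, so their tumors had to lie above the wild-type samples to be tested. Col8a2, the partner chain gene of Col8a1, reached 100 in tumor 1 alone, at 146. Without wild type 1, 2 or 3 in turn, 1 gene of the other class stayed called higher in place of 3.

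Col26a1, a collagen known from the testis and ovary, had signals of 459, 102 and 156 in tumors, against 62, 39 and 92 in wild-type cells. The tumors lay above, which the signal minimum required for a test, tumor 2 barely so. The lower bound of the fold was 1.94, and the gene was not called (adjusted p = 0.080, or 0.041 without tumor 2). Leaving out any other sample did not call Col26a1 (limma adjusted p up to 0.20). Col7a1, the anchoring fibril collagen of stratified epithelia, read 82, 86 and 108 in tumors, against 174, 55 and 126 in wild-type cells, and the groups overlapped.

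The 14 genes without a test had signals between 1.2 and 170 on the 6 arrays. Below 100 throughout were 7 of them: Col2a1, Col24a1, Col19a1, Col9a3, Col10a1, Col17a1 and Col6a5. The other 7, Col11a2, Col22a1, Col9a1, Col13a1, Col23a1, Col25a1 and Col8a2, reached 100 on 1 or 2 arrays. Over all 42 genes, without the signal minimum, tumors lay wholly above wild-type samples in 16, wholly below in 3 (Col2a1, Col19a1 and Col25a1) and overlapped in 23, against 17.4% wholly above and 17.5% wholly below over all 18193 named genes.

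For most chains the spread was wider among tumors. The SD of log2(signal + 32) was larger among the 3 tumors in 21 of the 28 tested collagen genes, against 61.5% of all tested genes. The lowest spreads among tumors were those of Col7a1 (0.16), Col3a1 (0.16) and Col6a1 (0.17), and the highest those of Col8a1 (2.03), Col9a2 (1.21), Col4a4 (1.17) and Col5a3 (1.07). These last 4 genes had a highest tumor at least 5-fold above the lowest, as had 2.76% of all tested genes, and 73 tested genes spread at least as much as Col8a1. Col18a1 had an SD of 0.83 among tumors, against 0.06 among wild-type samples.

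**Figure D3:**
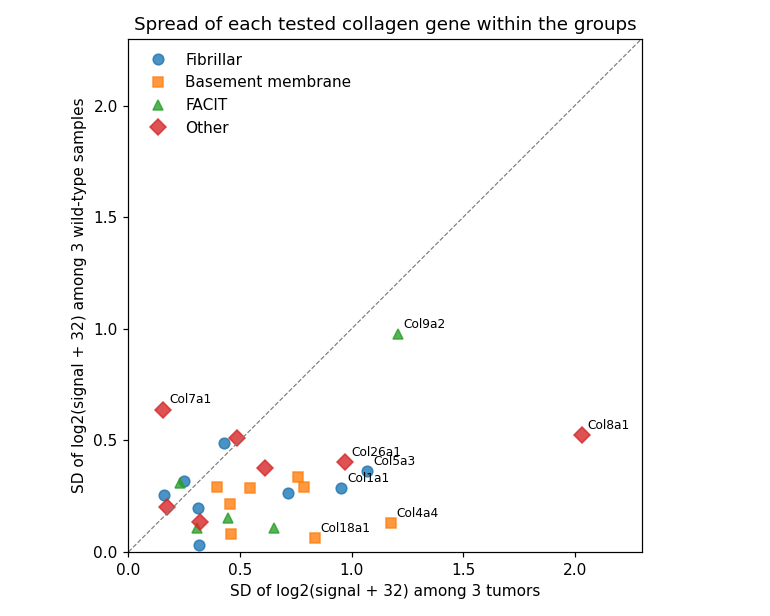
SD of log2(signal + 32) among the 3 tumors (horizontal) and among the 3 wild-type samples (vertical) for each of the 28 tested collagen chain genes, coloured by class, with equality as a dashed line. In 21 genes the point lies below the line, farthest right for Col8a1 at 2.03.

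The tumors did not rank alike for all chains. Tumor 2 had the highest signal in 14 of the 28 genes, among them Col4a1, Col4a2, Col18a1, Col1a1, Col1a2, Col3a1, Col5a1 and Col6a1, while tumors 1 and 3 had the highest in 7 each. Over all tested genes the shares were 31.9% for tumor 1, 30.4% for tumor 2 and 37.7% for tumor 3. Tumor 3 was the highest for Col11a1, Col12a1, Col8a1, Col5a2, Col6a2, Col4a5 and Col7a1, and the lowest for Col1a1, Col1a2, Col9a2, Col14a1, Col15a1, Col16a1, Col20a1, Col4a3 and Col6a4. Tumor 1 led for Col9a2, Col14a1, Col15a1, Col26a1 and the type IV genes Col4a3, Col4a4 and Col4a6.

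Genes that act on collagen were counted in 8 lists by role, 75 of them tested: 22 were called higher, 6 lower and 47 were not called, with a median log2 fold change of 0.19. Over all tested genes 14.5% were called higher and 12.6% lower. With hybridisation control scaling, 10 of the 75 were called higher and 39 lower, where 3.58% of all tested genes were called higher and 65.0% lower, and P4ha3, Pcolce and Lama2 below no longer passed.

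Inside the cell, 3 of 17 modification and chaperone genes were called higher and 3 lower, near the 14.5% and 12.6% of all tested genes, with a median of -0.24. Colgalt2, a galactosyltransferase of collagen hydroxylysine, had signals of 169, 135 and 274 in tumors, against 2098, 2033 and 1840 in wild-type cells. It fell by 3.21 ± 0.23 on the log2 scale (adjusted p = 0.00037). P4ha3, a prolyl 4-hydroxylase subunit, had 131, 109 and 158 in tumors, against 8.4, 48 and 49 in wild-type cells, at least 1.31-fold higher (adjusted p = 0.016). It reached the signal minimum through the tumor arrays alone, so it had to differ to be tested. Of the 13 tested secretion genes, Creb3l1, a transcription factor of the secretory pathway, was called higher at 0.67 (adjusted p = 0.030), a value that was -0.25 with hybridisation control scaling, and the other 12 were not called. Its call was also lost without tumor 1, 2 or 3 or wild type 1 or 2 (adjusted p between 0.051 and 0.11).

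Outside the cell, Pcolce, the enhancer of procollagen C-propeptide removal, was higher by 1.37 ± 0.24 (adjusted p = 0.0073), with signals of 11442, 11693 and 16684 in tumors, against 4319, 4463 and 6675 in wild-type cells. Bmp1, the protease it assists, was not called. In the crosslinking list 1 of 5 tested genes was called, and it was Tgm2, the tissue transglutaminase, at 2992, 2478 and 2440 in tumors, against 407, 562 and 418 in wild-type cells (log2 fold change 2.44 ± 0.18, adjusted p = 0.00037). Lox, Loxl1 and Loxl3, lysyl oxidases that crosslink fibrillar chains, and Pxdn, the peroxidase that crosslinks type IV collagen, were not called.

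Of the fibril-binding proteoglycans 6 of 8 tested genes were called higher and none lower, with a median of 1.92. Biglycan (Bgn) had signals of 8617, 8406 and 3686 in tumors, against 779, 729 and 461 in wild-type cells, and rose by 3.27 ± 0.37 (adjusted p = 0.0016). Lumican (Lum) had 9754, 9410 and 3177 in tumors, against 873, 879 and 838 in wild-type cells, and rose by 2.90 ± 0.41 (adjusted p = 0.0037). In both, tumor 3 was the lowest tumor and still lay above every wild-type sample.

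The partners of type IV collagen in basement membranes had 5 of 14 tested genes higher and 2 lower, with a median of 0.64. Nid1, nidogen 1, which links laminin to type IV collagen, had signals of 3357, 3650 and 4380 in tumors, against 573, 604 and 735 in wild-type cells, a log2 fold change of 2.51 ± 0.17 (adjusted p = 0.00030). Lama2, a laminin chain of muscle and nerve, rose by 1.70 ± 0.38 (adjusted p = 0.018, and 0.058 or 0.059 without wild type 1 or 2). Lama4, a laminin chain of vessels, had 405, 766 and 425 in tumors, against 1562, 1366 and 1452 in wild-type cells, and fell by 1.46 ± 0.25 (adjusted p = 0.0068).

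Degradation and uptake genes had 4 of 9 tested genes higher and none lower, with a median of 0.64. Mmp2, the type IV collagen-cleaving gelatinase, had signals of 2024, 2560 and 2015 in tumors, against 314, 468 and 366 in wild-type cells, and rose by 2.44 ± 0.19 (adjusted p = 0.00051). Ctsk, cathepsin K, which cleaves the helix of type I collagen, rose by 2.00 ± 0.33 (adjusted p = 0.0064). Among 7 tested receptors, with a median of 0.49, 1 was called higher and 1 lower, near the shares of all tested genes. Ddr2, a receptor kinase for fibrillar collagen, had 1355, 702 and 1355 in tumors, against 175, 227 and 201 in wild-type cells, and rose by 2.27 ± 0.27 (adjusted p = 0.0020). Itgb1, the common beta chain of collagen-binding integrins, fell by 0.58 ± 0.14 (adjusted p = 0.023), a call lost without tumor 1 or any 1 wild-type sample (adjusted p between 0.055 and 0.088), or with its probe sets averaged (-0.18, adjusted p = 0.34).

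**Figure D4:**
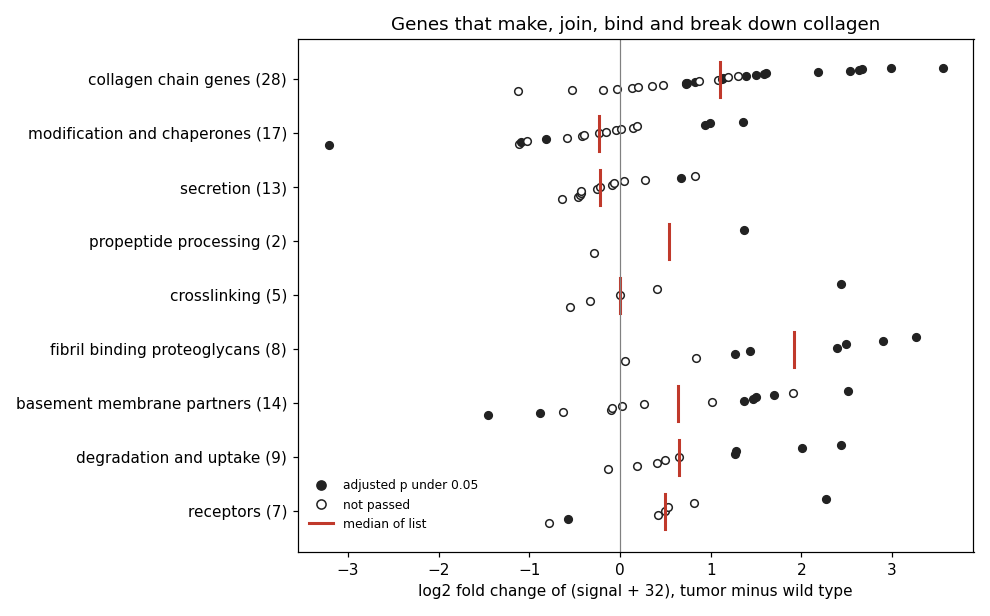
Log2 fold change of (signal + 32), tumors minus wild-type samples, of the tested genes in each role, with the number tested in brackets, filled points for genes called and a red bar for the list's median. The collagen chain genes have their median at 1.10 and the proteoglycans theirs at 1.92, while the modification and secretion genes centre at -0.24 and -0.22. With hybridisation control scaling 39 of the 75 partner genes and 65.0% of all tested genes were called lower.

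Markers of other cell types also differed between the groups. The summed signal of 12 fibroblast markers ranged over 21809 to 37199 in tumors, against 16026 to 18746 in wild-type cells, with 7 called higher and 1 lower. Lum and Dcn stand on this list and on that of the proteoglycans. Of the fibroblast markers Fbln1 was lower in tumors, at 3165, 2767 and 3649, against 9821, 12290 and 9169 in wild-type cells. The sum of 10 smooth muscle and pericyte markers, cells that make type I, IV and VI collagen, was 20916 to 38469 in tumors, against 5648 to 7181 in wild-type cells, with all 10 called higher. Endothelial cells, which line vessels on a type IV basement membrane, had a marker sum of 7087 to 14906 in tumors, against 3743 to 4762 in wild-type cells, with 6 of 12 called higher and none lower. The fibroblast sum was highest in tumor 1, and the smooth muscle and endothelial sums in tumor 2. Of the 8 basement membrane genes 4 were highest in tumor 1, 3 in tumor 2 and 1 in tumor 3, and of the 8 tested fibrillar genes 6 were highest in tumor 2 and 2 in tumor 3.

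The macrophage sum over 10 markers was 12956 to 15532 in tumors, against 2192 to 2571 in wild-type cells, with all 10 called higher. Over 5 genes listed for theca and other steroid-making cells, with 2 called higher and 1 lower, the sum was 8312 to 28601 in tumors, against 5734 to 9138 in wild-type cells. Most of the tumor sum was Ptch1, called higher, at 6060, 17963 and 27114 in tumors, against 2607, 3087 and 2092 in wild-type cells. Gli1, also called higher, was below 100 on all wild-type arrays, so it had to be higher in tumors to be tested. Cyp17a1, the gene called lower, read 290, 101 and 29 in tumors, against 5950, 2179 and 4717 in wild-type cells. Star and Hhip were not called, so the sum does not stand for all genes of this list. Surface epithelium markers summed to 2704 to 4995 in tumors, against 3781 to 5768 in wild-type cells, with 1 of 8 called lower. Granulosa markers, 11 in number, summed to 116477 to 118418 in tumors, against 192883 to 221147 in wild-type cells, with 1 called higher and 4 lower. The largest falls in signal were those of Inhba and Inhbb, both called lower. Inhba read 273, 548 and 1241 in tumors, against 28212, 20087 and 30806 in wild-type cells. Inhbb read 1710, 2436 and 2272 in tumors, against 30472, 32196 and 37533 in wild-type cells. Amh, the gene called higher, read 2980, 2209 and 2190 in tumors, against 456, 1658 and 253 in wild-type cells. The log2 fold change was positive for 3 of the 11 markers. Foxl2, a defining granulosa factor, was not called (limma adjusted p = 0.058). It read 8633, 7565 and 6439 in tumors, against 11642, 9843 and 10542 in wild-type cells. No marker of the fibroblast, smooth muscle and pericyte, endothelial or macrophage list was below 100 on all 3 tumor arrays, while 1, 2, 1 and 1 of them were on all 3 wild-type arrays. Those markers, Fap, Des, Cspg4, Flt1 and Fcgr1, are all among the genes called higher. They reached the signal minimum through the tumor arrays alone, so they had to be higher in tumors to be tested. The part of these cell types in the collagen differences was not tested.

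Cartilage and bone markers were set beside the cartilage-type chains Col11a1 and Col9a2. The list summed to 452 to 826 in tumors, against 9122 to 13159 in wild-type cells, and nearly all of the wild-type sum was Comp, a matrix protein of cartilage and other tissues. Comp read 83, 20 and 140 in tumors, against 11022, 12869 and 8585 in wild-type cells. Acan, the main cartilage proteoglycan, read 81, 141 and 64 in tumors, against 75, 97 and 136 in wild-type cells, and Matn1 and Matn3, matrilins of cartilage, were below 100 on all 6 arrays. Sox9, a transcription factor of cartilage and gonads, read 154, 232 and 189 in tumors, against 44, 9 and 140 in wild-type cells, and was not called. Its tumors all lay above its wild-type samples. Ibsp, a bone matrix protein, read 9.3, 3.8 and 331 in tumors, with only tumor 3 above 100, against 4.3, 2.5 and 2.2 in wild-type cells. Of the 7 markers on the array 3 were tested, with none called higher and 1 lower, and the part of such cells in the collagen values was not tested.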

How the data were processed

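The authors deposited 1 linear array intensity per probe set and sample, from MAS5 for wild-type and GCOS for tumor arrays per the submitters' processing notes, with no version given. Every array had a trimmed mean of 500 with 2% left out at each end, and was rescaled to it. Of 45101 probe sets, 34945 carried 1 gene symbol in GEO's platform annotation, 932 several and 9160 none (64 controls left out); 34741 matched RefSeq (GRCm38.p6), which changed 0 symbols. Detection calls were not used. The signal minimum was 100 on 3 of 6 arrays, the pseudocount 32, and each gene had its brightest passing probe set. Groups were compared with limma 3.58.1 (R 4.3.3, lmFit and eBayes, 2-sided); Python 3.11.15, pandas 2.3.3 and matplotlib 3.10.9 prepared tables and figures. The fit was tested on simulated data. A fold given as "at least" sets the brighter group against 100, for genes below 100 throughout the other group. The number of arrays limits precision, and the labels do not say that equal replicate numbers share a source. The wild-type spread is between pools, not single females.

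The members and the lists of partner genes and cell type markers were chosen with earlier results of these data known. Named were all members, and the tested ones were given with signals for each array. From each partner list, the 2 called genes with the largest change were named, plus the largest called change in the other direction. Fbln1, Foxl2, Inhba, Inhbb, Amh, Comp, Acan, Sox9, Ibsp, Matn1, Matn3, Bmp1, Lox, Loxl1, Loxl3 and Pxdn were named after their values were seen. So were Fap, Des, Cspg4, Flt1, Fcgr1, Gli1, Hhip and Star. Sequences are RefSeq's. Alternatives tried were 2 other pseudocounts, 2 filters, 3 scalings, averaged probe sets, trended robust variances, a replicate block and leaving out each sample.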

Additional observations from a re-analysis of the deposited data

How the results depend on the processing

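Across 16 alternatives, 8 of the 13 called collagen genes kept the call in all 6 fits without 1 sample, and 9 of 13 kept direction and call in the other alternatives apart from hybridisation control scaling (5 of 13 with it). Of the 15 tested collagen genes not called, 8 passed in 1 of the 6 fits without 1 sample and failed in the rest. Leaving out 1 sample gave 8 to 15 collagen genes higher and 0 to 1 lower: fibrillar 3 to 6, basement membrane 2 to 3 higher and 0 to 1 lower, FACIT 2 to 5, other 1 to 3. Over all genes it gave 866 to 1704 higher and 662 to 1409 lower, and among partner genes 16 to 22 higher and 5 to 8 lower. With hybridisation control scaling, 6 collagen genes were higher and 5 lower. By class this was fibrillar 1 higher and 1 lower, basement membrane 2 and 2, FACIT 2 and 0, and other 1 and 2. Partner genes then split into 10 higher and 39 lower, and all genes into 416 and 7544. The fold changes that then turned negative were those of Col4a3 (-0.66), Col4a4 (-0.25), Col16a1 (-0.26), Col20a1 (-0.53), Col27a1 (-0.82), Col5a1 (-0.18), Col6a2 (-0.30), Col6a3 (-0.56) and Creb3l1 (-0.25). That scaling shifts every gene by construction. Median scaling gave 919 lower genes, 4 basement membrane genes higher and 0.06 for Col6a4. Quantile normalization gave 10 lower partner genes. Trended robust variances gave 11, and 1 lower collagen gene, of the basement membrane class. No filter left 3 fibrillar and 1 other gene higher, with more genes tested. Averaged probe sets gave -0.00057 for Col27a1. Fold changes changed sign without 1 sample for Col4a3 (-0.11 to 0.35), Col6a4 (-0.21 to 0.26) and Col7a1 (-0.54 to 0.079). For the other values that moved, the cause was not tested. With the replicate block, 13 collagen genes were higher and 0 lower, Col5a1 lost its call (adjusted p = 0.057) and Col5a2 gained one (adjusted p = 0.030), and all genes split into 1464 and 1138. Deviations of same-numbered samples correlated at -0.045, 0.028 and 0.090. With 3 samples a group, such values cannot decide whether equal numbers share a source. The signal minimum left 14 members without a test, and 2 tested members, Col8a1 and Col26a1, have a bound for their fold.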
